A study of Mus musculus with 3 samples.

Results

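Osteoclast control and tooth eruption genes were examined in bulk RNA sequencing of the proximal mouse incisor. The 10 genes, picked by symbol, were Tnfsf11, Tnfrsf11b, Tnfrsf11a, Csf1, Pthlh, Pth1r, Acp5, Ctsk, Nfatc1 and Atp6v0d2. All 10 were among the 19381 genes listed. The 3 libraries belonged to 1 group, labelled DKO, of mice with the genotype Gli1-CreER;Arid1a fl/fl;Arid1b fl/fl. All were given tamoxifen by intraperitoneal injection (1.5 mg per 10 g of body weight) and were sampled 4 days later, at the age of 1 month. The Cre recombinase is driven by the Gli1 promoter, so recombination is limited to cells that express Gli1 and their progeny, while osteoclasts arise from the blood lineage. The labels do not say whether the libraries came from separate or pooled animals, so the SDs measure only the spread between these libraries. Control libraries were not analysed here, and no value below is an effect of the genotype.

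Osteoclasts are bone-resorbing cells that form by fusion of precursors of the macrophage lineage. CSF1 keeps those precursors alive, and RANK ligand (Tnfsf11) on stromal cells binds RANK (Tnfrsf11a) on the precursors and switches on the transcription factor NFATc1, which drives resorption genes such as Ctsk and Acp5. Osteoprotegerin (Tnfrsf11b) is a secreted decoy that captures RANK ligand. In tooth eruption the dental follicle recruits osteoclasts that open a path through the bone, and PTHrP (Pthlh) acting on its receptor (Pth1r) in follicle cells is required for it.

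Start regions of 4 of these genes are printed because their levels frame the results: the ligand Tnfsf11, which was scarce, the resorption protease gene Ctsk, which was not, and Acp5 and Pthlh, which differed between libraries in the same way. RefSeq (GRCm38.p6) start regions were at hand for 7 of the 10 genes. Each runs from 250 bases before to 50 bases after a transcript start, 5′ to 3′ on the gene's strand. Capitals mark matches, on either strand, to the TATA box motif TATAAA or to GGAAA, the core bound by NFAT factors, which do not overlap each other here. The regions lie at chr14:78307994-78308293 (Tnfsf11, minus strand), chr6:147263964-147264263 (Pthlh, minus strand), chr3:95498960-95499259 (Ctsk, plus strand) and chr9:22135697-22135996 (Acp5, minus strand, the region nearest the annotated gene start among 3).
Tnfsf11: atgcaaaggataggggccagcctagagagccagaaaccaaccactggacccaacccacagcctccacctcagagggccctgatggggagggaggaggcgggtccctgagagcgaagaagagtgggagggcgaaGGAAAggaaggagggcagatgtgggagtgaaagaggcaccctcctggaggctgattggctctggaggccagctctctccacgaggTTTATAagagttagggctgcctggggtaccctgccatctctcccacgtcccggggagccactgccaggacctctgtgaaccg
Pthlh: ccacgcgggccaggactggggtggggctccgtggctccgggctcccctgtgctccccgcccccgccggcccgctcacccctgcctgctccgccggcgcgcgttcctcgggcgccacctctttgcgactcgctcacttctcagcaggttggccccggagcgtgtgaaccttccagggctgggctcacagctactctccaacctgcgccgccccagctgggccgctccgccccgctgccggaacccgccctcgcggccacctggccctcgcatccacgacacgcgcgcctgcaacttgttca
Ctsk: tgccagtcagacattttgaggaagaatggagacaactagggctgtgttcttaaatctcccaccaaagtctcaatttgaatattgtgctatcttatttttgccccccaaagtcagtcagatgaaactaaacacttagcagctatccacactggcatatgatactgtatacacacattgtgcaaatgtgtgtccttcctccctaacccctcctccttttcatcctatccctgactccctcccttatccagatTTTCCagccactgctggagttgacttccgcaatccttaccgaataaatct
Acp5: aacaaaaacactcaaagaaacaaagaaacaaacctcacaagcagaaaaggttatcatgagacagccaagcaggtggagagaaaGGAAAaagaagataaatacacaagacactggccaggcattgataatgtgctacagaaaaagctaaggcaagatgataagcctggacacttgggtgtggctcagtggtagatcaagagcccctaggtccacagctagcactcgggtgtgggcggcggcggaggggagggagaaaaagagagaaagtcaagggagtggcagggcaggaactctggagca
The NFAT core GGAAA was found 1 time each in the Tnfsf11, Ctsk and Acp5 regions, and it is present in 61.3% of 32851 start regions of the same length. TATAAA was found in the Tnfsf11 region, as its reverse complement, and is present in 13.6% of all regions. The AP-1 motif TGANTCA, present in 7.81% of all regions, had no match in these 4 windows. The same held for the MITF motif TCATGTG, present in 3.77%. GC content was 61.7% for Tnfsf11, 74.0% for Pthlh, 43.7% for Ctsk and 48.7% for Acp5.

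Transcripts of all 10 genes were measured in every library, as were those of every listed gene. Values are normalized counts as deposited, scaled to a common upper quartile. Of the 10 genes, 8 had a mean of at least 10, a level reached by 53.6% of all listed genes. Means ran from 0.890 for Atp6v0d2 to 113.8 for Csf1, percentiles 22.5 and 90.8 of all genes. Of the 30 values, 29 lay within 0.1 of a whole multiple of the smallest value in their library. If that smallest value stands for 1 read, which could not be settled, the values rest on between 28 reads (Atp6v0d2, replicate 1) and 5198 reads (Csf1, replicate 3). The 95% exact Poisson intervals given below rest on this reading and cover counting error only.

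Replicate 1 stood somewhat apart, with 12.4% of its total in ribosomal RNA and mitochondrial genes, against 9.12% and 8.82% in replicates 2 and 3. Replicate 2 differed in another way, with an odontoblast marker sum of 6095 against 15824 and 18121 in replicates 1 and 3. Col1a1 made up most of each sum, at 9950, 4719 and 13715 in replicates 1, 2 and 3. The 5 odontoblast markers with a mean of at least 10 were all lowest in replicate 2 (27.8% of all genes at that level).

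**Figure D1:**
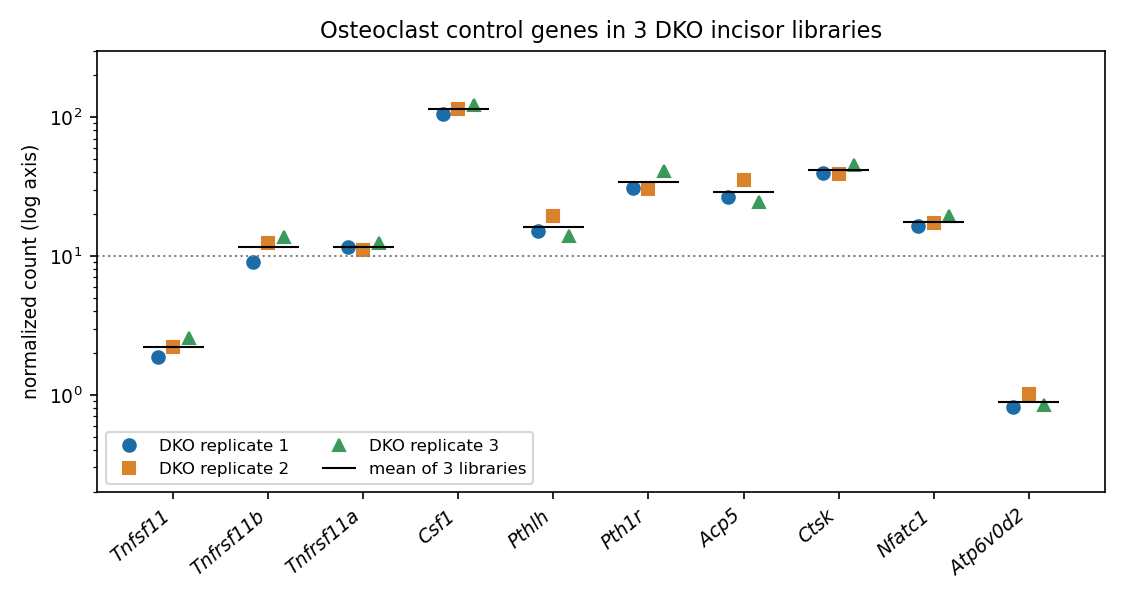
Normalized count on a log axis for each of the 10 genes, with 1 symbol per DKO library and a black line at the mean of 3 libraries; the dotted line marks 10. Csf1 lies highest, with 106 to 121, and Tnfsf11 and Atp6v0d2 lie below the dotted line in every library.

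RANK ligand was scarce beside its decoy. Tnfsf11 (chromosome 14, 78277445 to 78308043, mm10) stood at 1.86, 2.23 and 2.59 in replicates 1, 2 and 3 (2.23 ± 0.361, SD, n = 3). Its counting intervals overlapped between libraries, reaching 2.38 at the upper end in replicate 1 and starting at 2.13 in replicate 3. Tnfrsf11b (chromosome 15, 54250619 to 54278484) was at 8.97, 12.4 and 13.6 (11.6 ± 2.39, SD, n = 3). Replicate 1 was low, and its counting interval ended at 10.03, short of that of replicate 2, which began at 11.3. The receptor gene Tnfrsf11a (chromosome 1, 105780718 to 105847981) was at 11.5, 10.99 and 12.4 (11.7 ± 0.732, SD, n = 3), with counting intervals that overlapped in all 3 libraries.

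Levels of different genes were compared per kilobase of exon and within each library. Tnfsf11 averaged 0.995 ± 0.161 normalized counts per kilobase and Tnfrsf11b 4.13 ± 0.849 (SD, n = 3 each). The log2 ratio of Tnfsf11 to Tnfrsf11b was -1.93, -2.14 and -2.06, a mean of -2.05 ± 0.11 (SD, n = 3). Osteoprotegerin transcript was therefore 4.13-fold above RANK ligand transcript, and 3 of 3 libraries had this direction. The ratio varied less between libraries than either gene did, and both were lowest in replicate 1 and highest in replicate 3. If the smallest value is 1 read, counting error of Tnfsf11 alone was 9.49% to 12.5%. Whether the 2 genes vary together was not tested. Tnfrsf11a averaged 1.95 ± 0.122 per kilobase, and its log2 ratio to Tnfsf11 was 1.21, 0.88 and 0.85. Both ratios had p = 0.25 in a two-sided exact permutation test that flips signs, the smallest that n = 3 allows, and 0.292 after Benjamini-Hochberg adjustment over the 7 ratios computed.

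**Figure D2:**
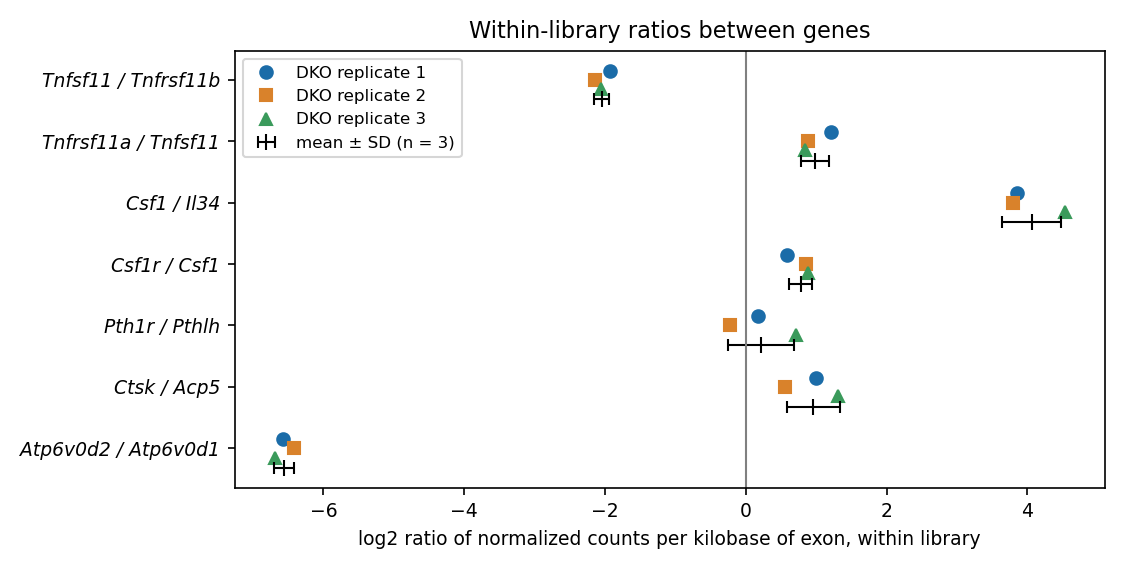
Log2 ratio of normalized counts per kilobase of exon within each DKO library for 7 gene pairs; symbols are libraries, and the black bar under them is the mean ± SD (n = 3). All pairs but the fifth keep 1 side of zero in every library, from -6.56 for Atp6v0d2 over Atp6v0d1 to 4.06 for Csf1 over Il34. The fifth, Pth1r over Pthlh, falls on both sides.

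Csf1 was the most abundant of the 10 genes in counts. It (chromosome 3, 107741048 to 107760469) stood at 106, 115 and 121 (113.8 ± 7.73, SD, n = 3), with a coefficient of variation of 6.79%. Replicate 1 was lowest, and its counting interval ended at 109, below the start of the interval of replicate 2 at 111. Interleukin 34, the other ligand of the CSF1 receptor, was weakly expressed, with Il34 at 2.71, 3.08 and 1.93. The log2 ratio of Csf1 to Il34 per kilobase was 3.86, 3.79 and 4.54, a 16.7-fold mean excess of Csf1 (exact two-sided sign-flip permutation p = 0.25, adjusted 0.292). Their shared receptor gene, Csf1r, which marks macrophages and osteoclast precursors, was at 173, 228 and 246. Per kilobase it exceeded Csf1 by a log2 ratio of 0.59, 0.86 and 0.89 (the same test, exact p = 0.25, adjusted 0.292).

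Transcripts of the PTHrP ligand and its receptor were both well above 10, and the library in which each was high was not the same. Pthlh (chromosome 6, 147252101 to 147264183) was at 15.2, 19.5 and 13.9 (16.2 ± 2.95, SD, n = 3). Replicate 2 was high, and its counting interval (18.1 to 20.99) did not overlap those of the other libraries. Pth1r (chromosome 9, 110722085 to 110747145) was at 30.8, 30.3 and 40.9 (34.0 ± 5.98, SD, n = 3). Here replicate 3 was high, with an interval of 39.0 to 42.9 against an upper end of 32.8 in replicate 1. Per kilobase Pth1r averaged 11.6 ± 2.05 and Pthlh 10.0 ± 1.82 (SD, n = 3 each), and the log2 ratio was 0.17, -0.22 and 0.71. It was positive in 2 of 3 libraries (exact two-sided sign-flip permutation p = 0.75, adjusted 0.75). The mean log2 ratio was 0.22 ± 0.47 (SD, n = 3) per kilobase of exon, 0.55 per kilobase of the longest transcript and 1.07 without division by length, and in the last 2 cases it was positive in 3 of 3 libraries (exact permutation p = 0.25 each). Exons of Pth1r share 95 bases with the muscle gene Myl3 on the opposite strand, which was not among the listed genes, and the strand setting of the counting is not given in the sources used here.

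The resorption genes ranged from abundant to nearly absent. Ctsk (chromosome 3, 95499256 to 95509362), which encodes the collagen-cleaving protease cathepsin K, stood at 39.7, 39.0 and 45.4 (41.4 ± 3.49, SD, n = 3). Acp5 (chromosome 9, 22126727 to 22135711), which encodes tartrate-resistant acid phosphatase, was at 26.7, 35.5 and 24.5 (28.9 ± 5.81, SD, n = 3). In Acp5 replicate 2 was high, with a counting interval of 33.6 to 37.5 against an upper end of 28.5 in replicate 1, whereas in Ctsk replicate 3 was highest. The log2 ratio of Ctsk to Acp5 per kilobase was 1.00, 0.56 and 1.31 (exact two-sided sign-flip permutation p = 0.25, adjusted 0.292). Exons of Acp5 share 137 bases with a noncoding gene on the opposite strand, 6530413G14Rik, which was not among the listed genes either.

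Nfatc1 and the osteoclast-enriched proton pump subunit were lower. Nfatc1 (chromosome 18, 80606205 to 80713071) was at 16.4, 17.3 and 19.4 (17.7 ± 1.53, SD, n = 3). Atp6v0d2 (chromosome 4, 19876841 to 19922605), whose product also acts in fusion of osteoclast precursors, was at 0.816, 1.02 and 0.839 (0.890 ± 0.110, SD, n = 3). Its counting intervals overlapped in all libraries, the widest upper end being 1.40 in replicate 2. Its ubiquitous counterpart Atp6v0d1 was at 51.1, 57.3 and 57.3. The log2 ratio of Atp6v0d2 to Atp6v0d1 per kilobase was -6.57, -6.41 and -6.69, a mean 94.3-fold excess of Atp6v0d1 (exact two-sided sign-flip permutation p = 0.25, adjusted 0.292).

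Per kilobase of exon the 10 genes ran in the order Ctsk, Csf1, Acp5, Pth1r, Pthlh, Tnfrsf11b, Nfatc1, Tnfrsf11a, Tnfsf11 and Atp6v0d2. Ctsk averaged 27.4 ± 2.31 per kilobase and Csf1 21.6 ± 1.46 (SD, n = 3 each), so the most abundant gene in counts was second per length. The libraries of neighbouring genes in this order overlapped for Acp5 (14.2 ± 2.86) with Pth1r and for Pth1r with Pthlh, and not for the other 7 neighbouring pairs. Per kilobase of the longest transcript, a length chosen after seeing the data, the order was the same, but the libraries of Ctsk (27.4) and Csf1 (27.3) overlapped, as did those of Tnfrsf11b (4.13) and Nfatc1 (3.69), while those of Pth1r (14.7) and Pthlh (10.1) did not. Per kilobase of exon the gap was narrow between Nfatc1, lowest at 2.19, and Tnfrsf11a, highest at 2.08.

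Set beside their own families, the osteoclast genes took different places. Atp6v0d2 was last of the 17 V-ATPase subunit and accessory genes compared per kilobase, and the next lowest, Atp6v1h, was 14.3-fold above it. Those 17 were a chosen list that does not hold every V-ATPase gene. Tcirg1, counted with the resorption machinery below, averaged 5.78 per kilobase. Nfatc1, at 2.37 ± 0.204 per kilobase, was last of 5 NFAT genes, level with Nfatc2 (2.38 ± 0.319), while Nfatc4 was 12.2-fold above it. Ctsk was 5th of 11 cathepsin genes, near Ctsl, Ctsa and Ctsc, with the lysosomal proteases Ctsd and Ctsb 4.30-fold and 4.10-fold above it. Acp5 was 3rd of 5 acid phosphatase genes, and its libraries overlapped those of Acp1. Per kilobase of the longest transcript Atp6v0d2 and Nfatc1 were again last, while Ctsk was 9th of 11 and Acp5 2nd of 5.

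Over the whole lists, all 16 other V-ATPase genes compared and all 10 other cathepsins had a mean of at least 10. So did all 9 other NFAT and calcineurin genes, 3 of 4 other acid phosphatases and 3 of 5 listed genes of the CSF system. Over all listed genes the share was 53.6%. Of the 16 V-ATPase genes 14 were lowest in replicate 1, the library in which 38.1% of all genes at that level were lowest.

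**Figure D3:**
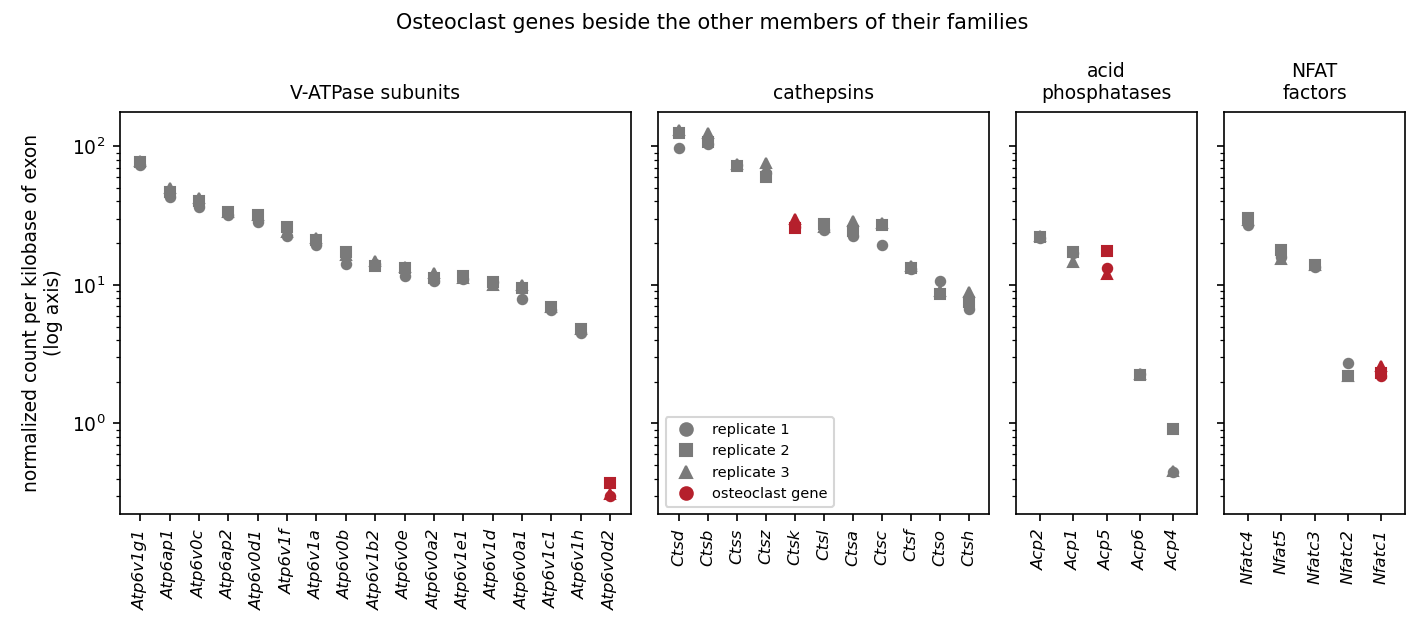
Normalized count per kilobase of exon on a log axis for 4 gene families, ordered by mean; symbols are the 3 DKO libraries, red for the osteoclast gene of each family and grey for the rest. Atp6v0d2 (0.328 per kilobase) lies far below every other V-ATPase gene shown, while Ctsk and Acp5 lie within the range of their families.

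Other genes of the osteoclast programme showed the same mixture of broadly used and scarce transcripts. A mean of at least 10, counted below, was reached by 53.6% of all listed genes. Of 11 RANK signalling partners, 10 had a mean of at least 10, led by the kinase adaptor Tab2 (187.9 ± 8.37), the kinase Map3k7 (140.03 ± 2.05), the adaptor Gab2 (87.9 ± 0.749) and the NF-kappa B subunit Nfkb1 (84.0 ± 2.13). All 11 genes of the resorption machinery list reached 10, led by Sh3pxd2a (559 ± 66.6), a scaffold of matrix-degrading podosomes, the membrane protease Mmp14 (313.8 ± 28.8), the anion exchanger Slc4a2 (65.7 ± 3.12) and the chloride transporter Clcn7 (41.3 ± 4.58). Among 9 osteoclast transcription factors 7 reached 10, with Fosl2 (175.6 ± 23.1), Bach1 (49.6 ± 1.79) and Prdm1 (21.2 ± 2.60) in front. Of 12 fusion and surface genes 9 were listed, and 5 of those 9 reached 10, near the share over all listed genes. Itgav (244.99 ± 13.7), Cd44 (193 ± 23.6), Cd9 (89.8 ± 5.20) and Fcer1g (26.3 ± 3.27) were highest, each SD over n = 3. Many of these genes are also used by cells other than osteoclasts.

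Most of 7 further markers of mature osteoclasts were scarce or not listed. That list left out the 10 genes by design, among them Ctsk (mean 41.4) and Acp5 (mean 28.9), which were not scarce. Oscar, a costimulatory receptor, was at 0.0291, 0.357 and 0.116, and the calcitonin receptor gene Calcr was at 0.0874, 0.467 and 0.233. Itgb3, the integrin beta chain of the osteoclast seal, was at 4.54, 5.05 and 4.45, while Dcstamp, Ocstamp and Siglec15 were not among the listed genes. Mmp9 was the exception within this list, at 8.16, 20.5 and 22.5, low in replicate 1. The sum over the 4 listed osteoclast markers was 12.8, 26.3 and 27.3. Macrophage markers were plentiful beside them, with 11 of 12 at a mean of at least 10 (53.6% of all listed genes) and sums of 999, 1301 and 1369. Mrc1 (267 ± 43.3) and Lyz2 (266 ± 54.6) led them, and 9 of those 11 were lowest in replicate 1 (38.1% of all genes at that level). In bulk RNA, fewer cells of a type and less RNA per cell cannot be told apart.

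Most listed genes for the control of osteoclast formation, the PTH pathway and eruption reached a mean of 10 (53.6% of all listed genes). Of 17 listed genes for the control of osteoclast formation, 14 reached a mean of 10. In front were the secreted Wnt5a (407 ± 98.5), the cytokine coreceptor Il6st (283.9 ± 9.10), the ephrin receptor Ephb4 (141 ± 11.7) and Lgr4 (103.0 ± 5.90), a receptor that also binds RANK ligand. The libraries lay at least 1.5-fold apart in 4 of those 14 (5.68% of all genes at that level), Wnt5a and, chosen after their values were seen, Sema3a, Ptger4 and Tnfsf10. Of 17 PTH pathway genes 15 reached 10, led by Gnas (1299 ± 81.1), which encodes the G protein alpha subunit that PTH1R couples to, Prkar1a (460.1 ± 18.6), Creb1 (126.9 ± 16.7) and Mef2c (112.9 ± 6.31). The parathyroid hormone gene itself, Pth, was not among the listed genes, nor were Pth2, Il6 and Wnt16. Of 13 eruption and dental follicle genes 9 reached 10, with Postn, a periodontal matrix protein, at 610, 1139 and 1337, low in replicate 1, and Msx2 (194.6 ± 8.56), Runx2 (154.95 ± 22.0) and Mkx (109.9 ± 3.08) next, each SD over n = 3.

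Differences between libraries were described for the 8 genes with a mean of at least 10. Of the 8, 0 had its highest library 1.5-fold above its lowest on the log2(value + 1) scale, against 5.68% of the 10388 genes at that level. Without the added 1, Tnfrsf11b reached 1.51-fold, and no other of the 8 passed 1.5-fold. The median log2 range was 0.33 over the 8 genes and 0.19 over the 10388. The 10388 genes were not matched to the 8 in level, which limits this comparison and the percentiles that follow. The widest was Tnfrsf11b, with a range of 0.55, at percentile 93.5 of those genes, followed by Acp5 with 0.52 at percentile 92.5. The narrowest was Tnfrsf11a, with 0.16 at percentile 41.8. Replicate 3 was highest for 6 of the 8 genes (34.6% of all), replicate 2 for Pthlh and Acp5 (34.2% of all) and replicate 1 for none (31.2% of all).

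Acp5 and Pthlh had the most similar library pattern of all pairs among the 8 genes, by a small margin. Their log2 deviations from their own means differed by at most 0.036 in any library. The next pairs were Csf1 with Nfatc1, at 0.039, and Tnfrsf11a with Ctsk, at 0.045. Dental epithelium markers moved in a partly related way, with sums of 809, 1281 and 972. Of the 8 whose mean reached 10, 7 peaked in replicate 2 (34.2% of all genes at that level). Replicate 3 was not the lowest in those sums, however, while it was the lowest for both Acp5 and Pthlh. Of the 8 epithelial markers, 5 were lowest in replicate 1 (38.1% of all genes at that level) and 3 in replicate 3 (34.2%). The incisor mesenchyme sum also peaked in replicate 2, at 1677, 1805 and 1792, but 1 of its 6 markers at that level did so. Endothelial markers were all highest in replicate 3 (7 of 7, sums of 334, 348 and 461), as were 6 of the 8 genes. Among all genes at that level the share was 34.6%. The part of other cell types in these differences was not tested.

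**Figure D4:**
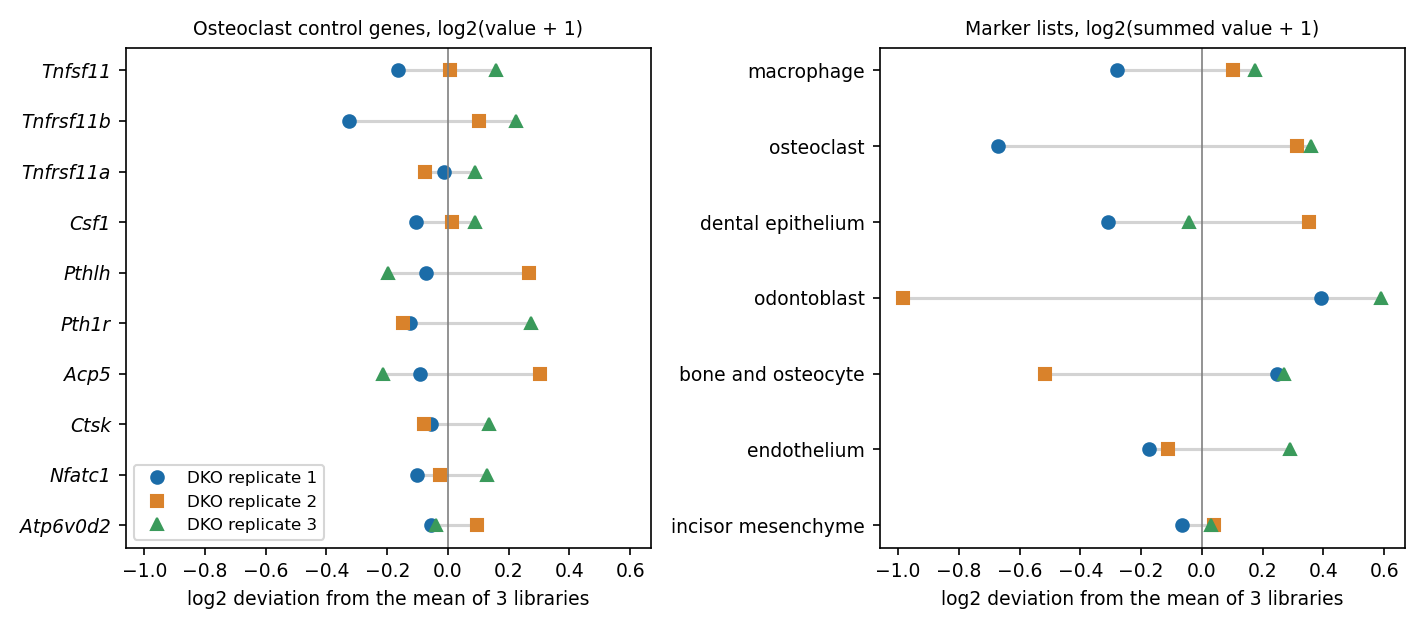
Log2 deviation of each DKO library from the mean of 3 libraries. The 10 genes are on the left (value + 1), the summed levels of 7 marker lists on the right (sum + 1). The osteoclast list holds its 4 listed markers and is dominated by Mmp9, and the odontoblast sum is dominated by Col1a1. Pthlh, Acp5 and Atp6v0d2 lie highest in replicate 2, as do the dental epithelium and incisor mesenchyme sums. Tnfsf11, Tnfrsf11b, Csf1, Nfatc1 and Atp6v0d2 lie lowest in replicate 1, as do all marker sums except those of odontoblast and bone.

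The genes with the nearest library patterns were named by the largest difference in log2 deviation over the 3 libraries. For Tnfrsf11b they were Fermt3 (largest difference 0.0046) and Csrp2 (0.0094), for Acp5 Pcdh20 (0.0074) and Trp63 (0.022), for Pthlh Myh11 (0.0048) and Cldn1 (0.0063), and for Pth1r Piezo1 (0.0096) and Pcdhgb1 (0.011). Of 10387 genes compared, 64 lay within 0.1 of Acp5, 140 of Pthlh, 172 of Tnfrsf11b and 242 of Pth1r. The flatter genes had from 2030 (Ctsk) to 2921 (Csf1) genes as near, so their nearest genes, Tbl3 and Arhgap45 for Ctsk, Coq5 and Rassf5 for Csf1, Cops7b and Csnk1g2 for Tnfrsf11a, and Fem1a and Rdh11 for Nfatc1, stand out little from the rest. With 3 libraries such likeness is a description only.

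The tissue label was set beside markers, which are not specific to the proximal incisor and so cannot settle it. Of 7 mesenchymal markers of the jaw and tooth 6 had a mean of at least 10 (53.6% of all listed genes). Prrx1 was at 619 ± 57.9, Pdgfra at 610 ± 36.3 and Msx1 at 240.1 ± 29.2 (SD, n = 3 each), while Barx1 was at 0.0874, 1.13 and 0.466. Skeletal muscle markers summed to 1.31, 5.74 and 3.08. The odontoblast marker sum was low in replicate 2, at 15824, 6095 and 18121, and the bone sum likewise, at 840, 494 and 854. Bglap is in both lists, and without it, an alternative chosen after seeing the data, the sum over the other 4 bone markers was 478, 389.9 and 459.6. Of the 8 genes with a mean of at least 10, Tnfrsf11a, Pth1r and Ctsk were lowest in replicate 2 (27.8% of all genes at that level).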

How the data were processed

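Per the submitters' processing notes, TopHat2 2.0.8 was the aligner and mm10 the genome build. The deposited values are a normalized gene-level signal that the authors call normalized counts. Their 75th percentile was 44.7 in all 3 columns, totals ran from 958773 to 986401, no value was 0, and values were not divided by length. No source used here gives the counter, the strand setting or any filter. Columns were matched to libraries by library number.

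Up to 20 times the smallest value, 82.4% to 82.6% of values came within 0.1 of whole multiples, and no count test was used. The Poisson intervals for the 10 genes rest on reading the smallest value as 1 read. Exon lengths (union of exons) came from GENCODE M21, which matched 18861 of 19381 genes by symbol, chromosome and start. In the table nearly all gene ends lie 1 base past GENCODE, whose ends are printed. Within-library log2 ratios per kilobase were tested with exact sign-flip permutations. Spread between libraries used log2(value + 1) and genes whose mean reached 10. The rule named the 10 genes, the genes of the 7 ratios, the 4 highest members of each of 12 lists and those at least 2-fold apart, and the 2 nearest patterns. Not every gene that this rule takes is reported here. Marker genes come from 8 further lists. Family members named by their rank were chosen after their values were seen. Python 3.11.15, pandas 2.3.3 and scipy 1.17.1 were used. The genes and lists were chosen with earlier results of these data known. Alternatives were other scalings, lengths, pseudocounts and cutoffs and leaving out each library.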

Additional observations from a re-analysis of the deposited data

How the results depend on the processing

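No paired analysis was possible because there was 1 group. The 10 levels were recomputed with the libraries rescaled, with or without ribosomal RNA and mitochondrial genes, and with each library left out, but such changes can hardly move a mean of 3 by 1 SD and say nothing of stability. Of the 7 ratios, 6 kept their direction without length division, with 1 added, with the longest transcript as length and with each library left out, and Pth1r over Pthlh reversed to -0.025 without replicate 3 (range -0.025 to 0.44 with a library left out). Pth1r over Pthlh was 1.07 without length division and 0.55 with the longest transcript. Without length division Tnfsf11 over Tnfrsf11b was -2.38, Tnfrsf11a over Tnfsf11 2.40, Csf1 over Il34 5.49 and Atp6v0d2 over Atp6v0d1 -5.96. With 1 added Tnfsf11 over Tnfrsf11b was -1.63, Tnfrsf11a over Tnfsf11 0.56 and Atp6v0d2 over Atp6v0d1 -5.49. With the longest transcript Ctsk over Acp5 was 0.47. For Tnfsf11 over Tnfrsf11b the longest transcript equals the exon union, so that ratio could not change. Ranges with a library left out were -2.10 to -1.996 for Tnfsf11 over Tnfrsf11b, 0.86 to 1.05 for Tnfrsf11a over Tnfsf11, 3.82 to 4.197 for Csf1 over Il34, 0.72 to 0.88 for Csf1r over Csf1, 0.78 to 1.16 for Ctsk over Acp5 and -6.63 to -6.49 for Atp6v0d2 over Atp6v0d1. The longest-transcript length, except for Tnfsf11 over Tnfrsf11b, and rescaling for the counts of genes lowest or highest in a library were chosen after seeing the data. At a cutoff of 100 in place of 10, 1 of the 10 genes, Csf1, reached it. The count of genes 1.5-fold apart was 0 with the libraries rescaled, without the filter, with each library left out and at a pseudocount of 10, and 1 (Tnfrsf11b) with no pseudocount, tried after seeing the data. With equal totals 5 rather than 3 of 8 genes were lowest in replicate 1, by the construction of the scaling, which lowers that library. The p-values cannot pass 0.05 with n = 3 and say nothing of stability. Depth limits Tnfsf11 and Atp6v0d2 most, with counting errors of up to 12.5% and 18.9% if the smallest value is 1 read.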
